A study of Mus musculus with 6 samples.

Results

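The 10 genes described here are markers and working parts of the osteoclast, the multinucleated cell that dissolves bone. They were chosen by name, as Tnfrsf11a, Calcr, Nfatc1, Itgb3, Dcstamp, Atp6v0d2, Tcirg1, Ctsk, Mmp9 and Acp5, and all 10 were found among the 24972 genes of both deposited tables. RNA was taken at postnatal day 1 from the first molars of the mouse upper jaw (maxillary molars), in 6 libraries of 3 Ascl5 genotypes. The study asked how transcript levels change when a mutation of Ascl5, a basic helix-loop-helix transcription factor gene, is carried on 1 allele (Ascl5Mut/WT, 2 libraries) or both (Ascl5Mut/Mut, 2 libraries), against Ascl5WT/WT (2 libraries). The labels give neither the strain nor the number of animals or teeth behind a library, so the p-values measure the spread between these libraries. Ascl5 itself was listed at 0 in all 6 libraries and could not check the genotype labels.

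Osteoclasts arise from precursors of the macrophage lineage that fuse with each other. The receptor RANK, made from Tnfrsf11a, receives the ligand RANKL and switches on the transcription factor Nfatc1, which in turn drives the genes of fusion, attachment, acid secretion and matrix digestion. Around a growing tooth germ these cells remove alveolar bone, which makes room for the tooth and opens its path of eruption, and the dental follicle around the germ supplies factors that recruit them.

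Values are the authors' normalized counts. Low values in each library lay near multiples of a step of 108.7 to 139.8 normalized counts, which is taken here as the worth of about 1 read. On that scale the libraries held an estimated 90476 to 117399 counted reads, and 66.6% to 71.0% of genes were listed at 0. A gene at 0 may hide up to 3 reads, which sets a floor that lay between 326 and 419 normalized counts. Floors and read-based intervals cover counting error only. The 2 tables, each holding the Ascl5WT/WT libraries with 1 mutant genotype, were normalized separately, so Ascl5WT/WT values differ slightly between them and tests were made within a table. Both comparisons rest on the same Ascl5WT/WT libraries.

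Of the 10 genes, the collagen-degrading protease Ctsk rose in Ascl5Mut/Mut molars, from about 1 read in each Ascl5WT/WT library to 79 and 54 estimated reads. It entered the test only through its mutant libraries, and the call depended on the minimum mean set for testing and on both mutant libraries. The gelatinase Mmp9 was tested and not called, and the proton pump subunit Atp6v0d2 and the phosphatase Acp5 were not tested. For all of these too, both Ascl5Mut/Mut libraries lay above both Ascl5WT/WT libraries. That makes 4 of 10 genes, where 6.80% of all genes in the table, and 13.3% of those above 0 in at least 1 library, had both mutant libraries above both Ascl5WT/WT libraries. In Ascl5Mut/WT molars 2 of 10 did, Ctsk and Mmp9, against 7.32% of all genes and 14.5% of those above 0. Only Ctsk was tested there, and it was not called. No gene of the 10 had both mutant libraries below both Ascl5WT/WT libraries in either table. The receptors, the transcription factor and the fusion and attachment genes stood at or near the floor in most libraries.

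**Figure D1:**
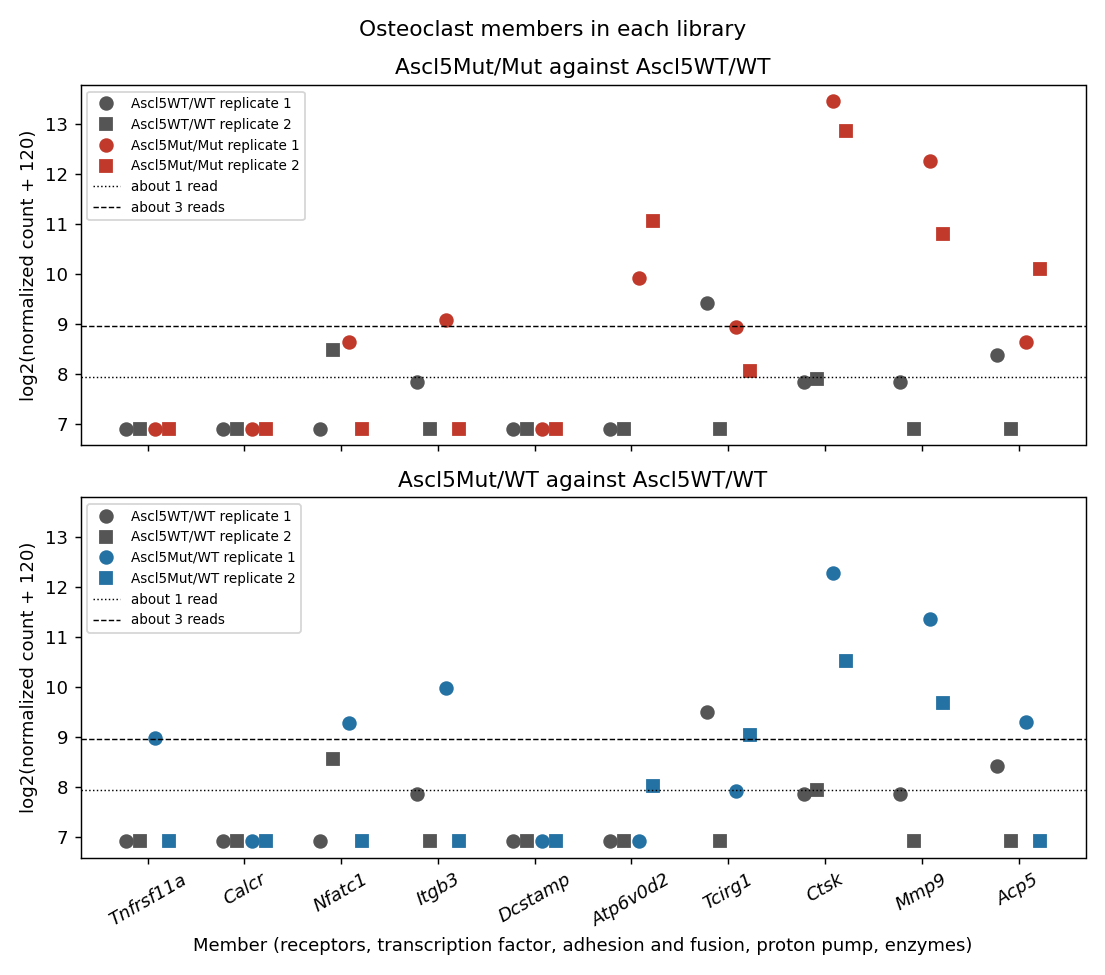
Each of the 10 genes by role on the x axis, with log2(normalized count + 120) on the y axis, in the Ascl5Mut/Mut table (upper panel) and the Ascl5Mut/WT table (lower panel). Points are libraries, and the dotted and dashed lines mark about 1 and 3 reads. Ctsk and Mmp9 stand above the line of 3 reads in all 4 mutant libraries and at 1 read or 0 in Ascl5WT/WT.

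Ctsk encodes cathepsin K, the cysteine protease that osteoclasts secrete to degrade bone collagen (chromosome 3, 95499256 to 95509362, plus strand, GRCm38). It had 109 and 120 normalized counts in Ascl5WT/WT replicates 1 and 2 and 11106 and 7277 in the Ascl5Mut/Mut replicates. The groups were far apart, and the mutant libraries differed from each other by far less than from Ascl5WT/WT. The mean was 9191 ± 2707 against 115 ± 8.2 (SD, n = 2 each). On the log2(value + 120) scale the rise was 5.28 (SE 0.74), with an adjusted p of 0.0151 by limma with Benjamini-Hochberg adjustment over the 2336 genes tested. A call was an adjusted p under 0.05, and 0.557% of the genes tested were called higher and 0.856% in either direction. In estimated reads the ratio was 80.7, with an exact 95% interval of 21.9 to 673.4, since Ascl5WT/WT held only 2 reads.

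That call was lost without Ascl5Mut/Mut replicate 1 (limma adjusted p = 0.375) or replicate 2 (0.359), and it held without either Ascl5WT/WT library. It was also lost with a pseudocount of 1 (0.0966), without a minimum mean (0.311) and without an intensity trend (0.12), while the difference stayed between 4.70 and 6.28 under all alternatives run.

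In Ascl5Mut/WT molars Ctsk had 4831 and 1338 normalized counts, against 111 and 126 in Ascl5WT/WT in that table. Both mutant libraries were higher, but they differed 3.61-fold from each other. The log2 difference was 3.49 (SE 1.46) and was not called by limma (adjusted p = 0.461, unadjusted 0.0273, 2370 genes tested), where 0.338% of genes were called higher and 0.549% in either direction. The ratio of estimated reads was 26.8 (exact 95% interval 7.04 to 228.0).

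The bases before the Ctsk start are shown because Ctsk is the called gene, and those before an Acp5 start because Acp5 is a classic target of the same transcription factors. Acp5 lay below the minimum mean and was not tested, so these 2 stretches do not set a called gene against an unchanged one. Both are from RefSeq (GRCm38.p6), 250 bases long and written along the gene's strand, Ctsk at chr3:95498960-95499209 on the plus strand and Acp5 at chr9:22130599-22130848 on the minus strand. The Acp5 window is 1 of 3 that RefSeq gives for that gene, and the one with the most matches. RefSeq windows were kept for 5 of the 10 genes (Ctsk, Acp5, Tcirg1, Calcr and Tnfrsf11a). A gene without a kept window, such as Nfatc1, may still have one in RefSeq, and its bases were not searched. Capitals mark matches on either strand to the PU box GAGGAA, the NFAT core GGAAA or the E-box CATGTG.
Ctsk: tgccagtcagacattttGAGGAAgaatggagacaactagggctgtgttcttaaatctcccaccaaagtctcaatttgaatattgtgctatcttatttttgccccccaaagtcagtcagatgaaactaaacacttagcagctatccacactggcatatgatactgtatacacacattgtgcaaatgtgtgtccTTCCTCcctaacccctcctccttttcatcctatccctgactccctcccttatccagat
Acp5: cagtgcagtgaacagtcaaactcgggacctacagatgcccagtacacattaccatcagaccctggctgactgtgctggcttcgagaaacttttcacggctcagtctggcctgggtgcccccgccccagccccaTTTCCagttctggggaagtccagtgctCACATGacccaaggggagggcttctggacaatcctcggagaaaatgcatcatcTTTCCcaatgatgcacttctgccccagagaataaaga
The Ctsk window held 2 matches to the PU box, a motif found in 23.3% of all 32851 RefSeq windows of this length, and none to the other motifs searched. The Acp5 window shown held 2 matches to the NFAT core, found in 55.6% of windows, and 1 to the E-box CATGTG, found in 12.3%. The other 2 Acp5 windows held 1 match to the NFAT core each and none to the other motifs. Neither window shown held the AP-1 motif TGANTCA (6.75% of windows) or the E-box CACGTG (6.02%). The PU box and the NFAT core can share letters, and no match in a window of this size says nothing of sites farther away.

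Mmp9, a gelatinase that osteoclasts use in matrix breakdown and migration and that neutrophils also store (chromosome 2, 164940780 to 164955850, plus strand), had 109 and 0 normalized counts in Ascl5WT/WT. It had 4815 and 1661 in Ascl5Mut/Mut, so both mutant libraries stood above, the lower one at 12 estimated reads. The log2 difference was 4.16 (SE 1.64) and was not called by limma (adjusted p = 0.374, unadjusted 0.0299). The ratio of estimated reads was 57.0, with an exact 95% interval from 9.75 to 2300.0 on 1 Ascl5WT/WT read. In Ascl5Mut/WT it had 2496 and 694 against 110 and 0, again higher in both libraries, and its mean of 825 left it below the minimum mean of 1000 for testing. With the minimum mean lowered to 300, the log2 difference was 3.13 (SE 1.20, limma adjusted p = 0.467).

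Only 2 of the 10 genes reached the minimum mean of 1000 in the Ascl5Mut/Mut table (Ctsk and Mmp9) and 1 in the Ascl5Mut/WT table (Ctsk), and they reached it through the mutant libraries. Genes that pass in this way had to differ, which holds for Ctsk and Mmp9 themselves, and the tests say nothing of the other 8 or 9 genes. Those tested had both mutant libraries above both Ascl5WT/WT libraries, as did 22.0% of all genes tested in the Ascl5Mut/Mut table and 21.1% in the other. The plot of mean level against difference shows the 10 genes among all genes tested.

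**Figure D2:**
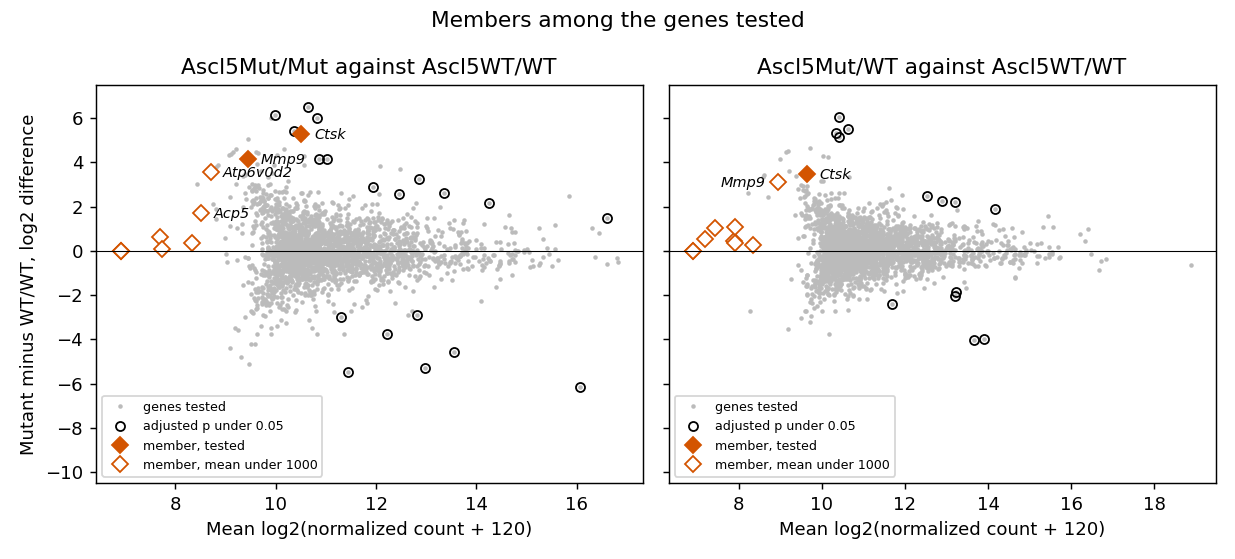
Mean log2(normalized count + 120) on the x axis and the mutant minus Ascl5WT/WT log2 difference on the y axis, for Ascl5Mut/Mut (left) and Ascl5Mut/WT (right). Grey points are the genes tested, black circles those with a limma adjusted p under 0.05, and diamonds the 10 osteoclast genes, filled where tested. Ctsk is circled in the left panel, at a difference of 5.28, and not in the right, at 3.49.

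Acp5, tartrate-resistant acid phosphatase, the enzyme stained to find osteoclasts (chromosome 9, 22126727 to 22135711, minus strand), had 213 and 0 normalized counts in Ascl5WT/WT and 278 and 985 in Ascl5Mut/Mut. Replicate 1 of the mutant, at 2 reads, was close to the higher Ascl5WT/WT library, also at 2 reads, and only replicate 2 stood clear. In Ascl5Mut/WT it had 511 and 0, which overlapped the 219 and 0 of Ascl5WT/WT. Its exons share 137 bases with the opposite-strand transcript 6530413G14Rik, and whether reads were counted by strand is not given in the sources used here. With no minimum mean the difference in Ascl5Mut/Mut was 1.73 (SE 1.14, limma adjusted p = 0.709).

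The osteoclast's proton pump is a V-ATPase with its own subunits, which acidify the space under the cell so that mineral dissolves. Atp6v0d2, the d2 subunit, which also takes part in cell fusion (chromosome 4, 19876841 to 19922605, minus strand), had 844 and 2032 normalized counts in Ascl5Mut/Mut, while neither Ascl5WT/WT library held any. These are 6 and 15 estimated reads, and the groups did not overlap. Against a floor of 3 reads per Ascl5WT/WT library the Ascl5Mut/Mut mean was at least 4.19-fold higher, and the lower mutant library at least 2.46-fold. Its mean of 719 kept it out of the test, and with the minimum mean lowered to 300 it was not called (log2 difference 3.59, SE 1.19, limma adjusted p = 0.527). In Ascl5Mut/WT it had 0 and 137, at most 1 read, which is not distinguishable from Ascl5WT/WT at this depth. Whether the 2 mutant genotypes differ in Atp6v0d2 was not tested, since they lie in separately normalized tables.

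Tcirg1, the a3 subunit that places the pump in the osteoclast's ruffled border (chromosome 19, 3896050 to 3907133, minus strand), did not follow Atp6v0d2. It had 565 and 0 normalized counts in Ascl5WT/WT against 374 and 147 in Ascl5Mut/Mut, and 598 and 0 against 120 and 403 in Ascl5Mut/WT. The groups overlapped in both tables, with 5 estimated reads in Ascl5WT/WT and 4 in each mutant genotype. Tcirg1 was present in a wild-type library that held no Atp6v0d2, and it is also used outside osteoclasts.

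The receptors were at or near 0. Tnfrsf11a, which encodes RANK (chromosome 1, 105780718 to 105847981, plus strand), stood at 0 in both Ascl5WT/WT and both Ascl5Mut/Mut libraries and had 380 and 0 normalized counts in Ascl5Mut/WT, about 3 reads in replicate 1. Calcr, the calcitonin receptor of mature osteoclasts (chromosome 6, 3685680 to 3764714, minus strand), was listed at 0 in all 6 libraries. Neither could be compared between genotypes at this depth, and a level up to the floor of 326 to 419 cannot be told from 0.

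Nfatc1, the transcription factor that RANK signalling switches on (chromosome 18, 80606205 to 80713071, minus strand), had 0 and 239 normalized counts in Ascl5WT/WT, 282 and 0 in Ascl5Mut/Mut and 496 and 0 in Ascl5Mut/WT. The groups overlapped, each with 1 library at 0, and no library held more than 4 estimated reads. Nfatc1 is also used in other tissues, among them endothelium.

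Itgb3, the beta 3 integrin subunit with which osteoclasts attach to bone (chromosome 11, 104608000 to 104670476, plus strand), had 109 and 0 normalized counts in Ascl5WT/WT and 421 and 0 in Ascl5Mut/Mut. In Ascl5Mut/WT it had 884 and 0 against 111 and 0. In each mutant genotype replicate 1 held the reads, 3 and 7, and replicate 2 was listed at 0, so the groups overlapped. Dcstamp, a membrane protein needed for precursor fusion (chromosome 15, 39745930 to 39760938, plus strand), was listed at 0 in all 6 libraries.

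Summed over the 10 genes, Ascl5WT/WT replicates 1 and 2 held 1104 and 359 normalized counts, about 10 and 3 reads. The Ascl5Mut/Mut replicates held 18119 and 12102, about 130 and 89 reads, and the Ascl5Mut/WT replicates 9717 and 2572, about 77 and 19 reads. Ctsk and Mmp9 made up 87.9% and 73.9% of the sum in Ascl5Mut/Mut and 75.4% and 79.0% in Ascl5Mut/WT. Without them, the other 8 genes summed to 887 and 239 in Ascl5WT/WT and 2198 and 3164 in Ascl5Mut/Mut. In the Ascl5Mut/WT table they summed to 928 and 254 in Ascl5WT/WT and 2390 and 540 in Ascl5Mut/WT, where replicate 2 fell between the wild-type libraries. The median log2 difference over the 10 genes was 0.48 in Ascl5Mut/Mut and 0.50 in Ascl5Mut/WT, beside 0 over all genes listed and 0.0097 and 0.047 over genes above 0 in at least 1 library of each table. The first median fell between Tcirg1 and Itgb3 and the second between Acp5 and Atp6v0d2, genes whose groups overlapped in that table. Tcirg1 had a positive difference of 0.34 in Ascl5Mut/Mut although its mean was 261 there against 283 in Ascl5WT/WT. These medians therefore show no shift of the whole set. In whole molars a larger number of cells of a type and more RNA per cell cannot be told apart.

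Per kilobase of exon, which allows levels of different genes to be compared, Ctsk was the highest of the 10 in Ascl5Mut/Mut at 6079 ± 1790 normalized counts per kilobase (SD, n = 2), above Mmp9 at 915 ± 630 in both libraries. Mmp9, Atp6v0d2 (529 ± 309) and Acp5 (311 ± 246) overlapped as neighbours in this order. Both Acp5 values were above those of Tcirg1 (56.6 ± 34.9). In replicate 1, however, Acp5 rested on 2 estimated reads and Tcirg1 on 3, too few to order these genes. Below that the order of Tcirg1, Itgb3 and Nfatc1 did not exceed the spread. In Ascl5Mut/WT the order began with Ctsk at 2040 ± 1633 and Mmp9 at 451 ± 360 (SD, n = 2 each), and no neighbours other than these 2 were apart in both libraries. In Ascl5WT/WT no gene of the 10 stood apart from its neighbour, and Ctsk was at 75.8 per kilobase.

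To set the genotypes side by side, values were divided by the library total of their table and given in ppm of that total. Ctsk made up 8.55 and 9.58 ppm in Ascl5WT/WT, 368 and 102.3 ppm in Ascl5Mut/WT and 861 and 591 in Ascl5Mut/Mut. The Ascl5Mut/Mut libraries were the highest and the Ascl5WT/WT libraries the lowest, with Ascl5Mut/WT between and no overlap. For Mmp9 the values were 8.54 and 0, then 190 and 53.1, then 373 and 135, so the mutant genotypes overlapped. For Atp6v0d2 they were 0 and 0, then 0 and 10.5, then 65.4 and 165. The difference between the mutant genotypes was not tested.

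**Figure D3:**
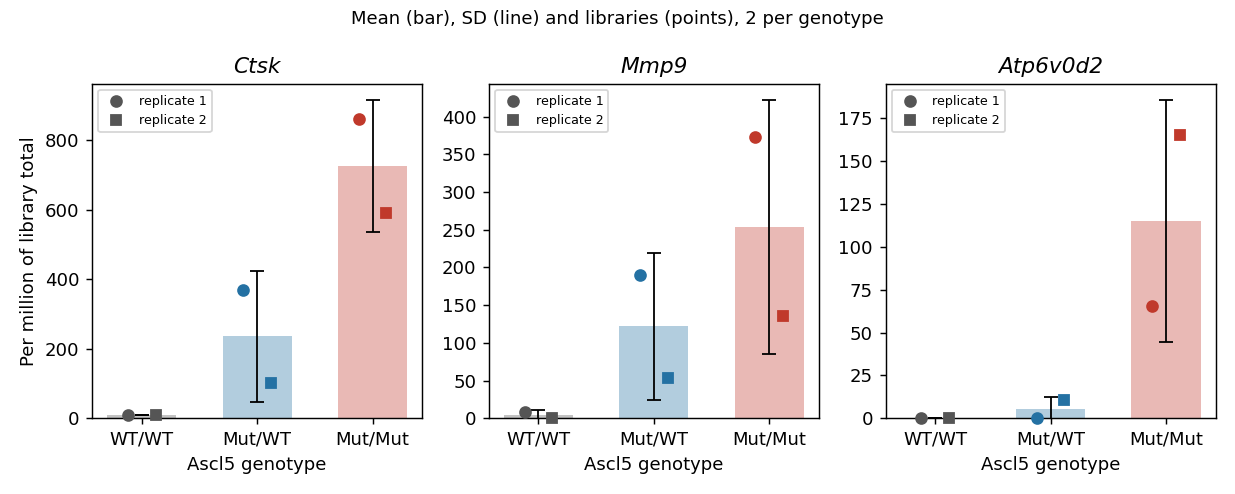
Ctsk, Mmp9 and Atp6v0d2 in ppm of the library total (y axis, each from 0) by Ascl5 genotype (x axis). Bars are means, lines are SD and points are the 2 libraries. Ctsk was ordered by mutant alleles without overlap, while the Mmp9 values of the mutant genotypes overlapped and Atp6v0d2 stood clear of 0 in Ascl5Mut/Mut, at 65.4 and 165.

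Of 70 other genes of osteoclast formation and function, none was called by limma in either comparison, with 6 tested in Ascl5Mut/Mut and 7 in Ascl5Mut/WT. In Ascl5Mut/Mut, 9 of 70 (12.9%) had both mutant libraries above both Ascl5WT/WT libraries, beside 6.80% of all genes, and 2 (2.86%) had both below, beside 6.89%. In Ascl5Mut/WT the counts were 8 (11.4%, beside 7.32%) and 2 (2.86%, beside 5.99%). Over genes above 0 in at least 1 library, the shares above were 17.0% of 53 in Ascl5Mut/Mut, beside 13.3% of all such genes, and 13.8% of 58 in Ascl5Mut/WT, beside 14.5%, which is near the background. Of the 70 genes, 17 were at 0 in all 4 libraries of the Ascl5Mut/Mut table and 12 in the other.

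Among the cytokines and receptors, Csf1r, the receptor of M-CSF on precursors and macrophages, had 1254 and 2069 normalized counts in Ascl5Mut/Mut against 0 and 476 in Ascl5WT/WT, and 127 and 413 in Ascl5Mut/WT against 0 and 496. It was higher in both Ascl5Mut/Mut libraries, and in Ascl5Mut/WT the groups overlapped. Lgr4, a second receptor for RANKL, had 703 and 136 in Ascl5Mut/Mut against 753 and 728, below in both libraries. In Ascl5Mut/WT Lgr4 had 127 and 1349 against 772 and 763, which overlapped. Of the 13 genes, 2 were above in both Ascl5Mut/Mut libraries (6.80% of all genes, 13.3% of those above 0) and 1 below (6.89% and 13.5%). In Ascl5Mut/WT none was above or below. The median log2 difference over those above 0 was 1.09 in Ascl5Mut/Mut and 0.55 in Ascl5Mut/WT, and over all 13 it was 0 and 0.42. Tnfsf11, the RANKL gene, and Tnfrsf11b, its decoy receptor, are named here for their place in the pathway and after their values were seen. Tnfsf11 had 420 and 0 in Ascl5Mut/Mut and 506 and 0 in Ascl5Mut/WT, and was listed at 0 in Ascl5WT/WT. Tnfrsf11b was at 0 apart from 274 in Ascl5Mut/WT replicate 2, so their balance could not be measured.

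Among 13 transcription factors and repressors, Fos, the AP-1 subunit needed for osteoclast formation, had 684 and 693 normalized counts in Ascl5Mut/Mut against 220 and 239 in Ascl5WT/WT. It was higher in both Ascl5Mut/WT libraries too, at 879 and 415 against 223 and 247. Fosl2, of the same list, was below in both Ascl5Mut/WT libraries, at 127 and 138 against 332 and 248, and overlapped in Ascl5Mut/Mut. Prdm1, which silences inhibitors of osteoclast formation, had 0 and 1348 in Ascl5Mut/Mut against 439 and 0, which overlapped. Nfkb1, an NF-kappa-B subunit, had 254 and 1241 in Ascl5Mut/WT against 328 and 0, which also overlapped. None of these means reached 1000. In Ascl5Mut/Mut 2 of the 13 were above in both libraries (6.80% of all genes, 13.3% of those above 0) and none below. In Ascl5Mut/WT 2 were above (7.32% and 14.5%) and 1 below (5.99% and 11.8%). The median difference over those above 0 was 0.56 in Ascl5Mut/Mut and 0.57 in Ascl5Mut/WT.

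Among 10 other genes of attachment, fusion and the cytoskeleton, 1 had both Ascl5Mut/Mut libraries above Ascl5WT/WT (6.80% of all genes) and 1 both below (6.89%). In Ascl5Mut/WT none was above (7.32%) or below (5.99%). Itgav, the integrin partner of Itgb3, had 277 and 0 normalized counts in Ascl5Mut/Mut against 650 and 2078 in Ascl5WT/WT, below in both libraries, and 1136 and 945 in Ascl5Mut/WT against 661 and 2164 (limma adjusted p = 0.952). Cd44, an adhesion receptor, had 149 and 998 in Ascl5Mut/Mut against 307 and 655. Gsn, the actin-severing protein gelsolin, was the gene above in Ascl5Mut/Mut, at 551 and 705 against 441 and 233, and had 127 and 1360 in Ascl5Mut/WT against 452 and 244. The median log2 difference over those above 0 was -0.19 in Ascl5Mut/Mut and -0.55 in Ascl5Mut/WT.

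Of 6 genes of acid and chloride transport, 1 had both Ascl5Mut/Mut libraries above Ascl5WT/WT (6.80% of all genes, 13.3% of those above 0). In Ascl5Mut/WT 2 did (7.32% and 14.5%), and none was below in either. Plekhm1, which guides lysosomes to the ruffled border, had 1251 and 2098 normalized counts in Ascl5Mut/Mut against 1977 and 350 in Ascl5WT/WT (limma adjusted p = 0.761), and 1889 and 4069 in Ascl5Mut/WT against 2007 and 363 (limma adjusted p = 0.584). Slc4a2, the anion exchanger, had 629 and 571 in Ascl5Mut/WT against 557 and 239, and in Ascl5Mut/Mut 0 and 283 against 547 and 230. Clcn7, the chloride-proton exchanger of the ruffled border, named after its values were seen, had 138 and 275 in Ascl5Mut/Mut and 251 and 414 in Ascl5Mut/WT against 0 in both Ascl5WT/WT libraries. Both Ascl5Mut/Mut values, and the lower Ascl5Mut/WT value, lay below the floor of 326 to 419. The median log2 difference of the 6 genes, over those above 0, was 0.81 in Ascl5Mut/Mut and 0.55 in Ascl5Mut/WT. Of 18 other V-ATPase genes, 1 had both Ascl5Mut/Mut libraries above Ascl5WT/WT (6.80% of all genes) and 4 were at 0 throughout that table, with a median difference of 0.18 over those above 0. In Ascl5Mut/WT 2 were above (7.32% of all genes) and 1 below (5.99%), with a median of -0.16. Atp6ap2, an accessory pump protein, had 829 and 3291 in Ascl5Mut/Mut against 1208 and 124 (limma adjusted p = 0.622), and Atp6v1d 279 and 800 against 667 and 1810.

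Among 10 other proteases and inhibitors, Timp3, an inhibitor of metalloproteases, had 5157 and 4835 normalized counts in Ascl5Mut/Mut against 1313 and 4740 in Ascl5WT/WT (log2 difference 0.95, SE 0.63, limma adjusted p = 0.585). The higher Ascl5WT/WT library was within 2.00% of the lower mutant one, so the separation was slight. Ctsb, a lysosomal protease of many cells, had 2970 and 8067 against 1962 and 4685 (limma adjusted p = 0.701) and did not separate the groups. In Ascl5Mut/WT Ctsb had 6235 and 4715 against 2001 and 4888, and Timp3 1891 and 3235 against 1334 and 4929. Mmp13, a collagenase of bone cells named after its values were seen, had 697 and 662 in Ascl5Mut/Mut against 110 and 123, and 882 and 399 in Ascl5Mut/WT against 111 and 128. It was higher in all 4 mutant libraries. Of the 10 genes, 2 were above in both Ascl5Mut/Mut libraries (6.80% of all genes, 13.3% of those above 0) and 2 in Ascl5Mut/WT (7.32% and 14.5%), with none below. Beside Mmp13 these were Timp3 in Ascl5Mut/Mut and, in Ascl5Mut/WT, the inhibitor Cst3, with 374 and 1228 against 113 and 248. The median difference of the 10 genes was 0.61 in Ascl5Mut/Mut and -0.072 in Ascl5Mut/WT.

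Some sums of markers of other cell types also stood higher in mutant libraries. The 13 macrophage markers summed to 1974 and 1445 normalized counts in Ascl5WT/WT and 2651 and 2878 in Ascl5Mut/Mut. Of the 13, 1, Csf1r, had both mutant libraries above, near the background (6.80% of all genes, 13.3% of those above 0). Their median log2 difference over those above 0 was 0.081. In Ascl5Mut/WT they summed to 1522 and 2722 against 2023 and 1499. C1qb, C1qc, Aif1 and Itgam were at 0 in all 6 libraries, and Ptprc, a marker of all leukocytes, had 1754 and 0 in Ascl5WT/WT, 139 and 0 in Ascl5Mut/Mut and 0 and 1209 in Ascl5Mut/WT. The 9 neutrophil markers summed to 111 and 0 in Ascl5WT/WT, 1828 and 1461 in Ascl5Mut/Mut and 2154 and 803 in Ascl5Mut/WT. S100a8, Elane, Mpo, Ltf and Retnlg were at 0 in all 6 libraries, so the sums came mainly from Mmp8, a collagenase, with 1127 and 1461 in Ascl5Mut/Mut, and in Ascl5Mut/WT replicate 1 from Ngp, a granule protein, with 1646. The part of these cells in the Mmp9 values was not tested.

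The sums of the bone, follicle, papilla and odontoblast, and endothelium lists also stood higher in mutant libraries, though the bone sums overlapped in Ascl5Mut/WT. Not every gene of a list followed its sum. The 12 osteoblast and bone matrix markers summed to 22478 and 55454 normalized counts in Ascl5WT/WT and 143429 and 88257 in Ascl5Mut/Mut. Of these, 8 of 12 were above in both mutant libraries (6.80% of all genes, 13.3% of those above 0), 1 was below (6.89% and 13.5%), 5 were tested and 0 called. The 1 below was the transcription factor gene Runx2, with 0 and 141 against 1405 and 540. Sp7, another transcription factor gene of the list, had 0 and 692 against 217 and 237, which overlapped. The fibrillar collagen genes had the highest means, Col1a2 with 60762 and 33388 against 8445 and 24451 (limma adjusted p = 0.246) and Col1a1 with 46510 and 26959 against 11973 and 23032 (limma adjusted p = 0.358). Spp1, osteopontin, to which osteoclasts attach, had 8305 and 5100 against 0 and 862 (limma adjusted p = 0.103), and Ibsp, bone sialoprotein, 21832 and 19262 against 329 and 5488 (limma adjusted p = 0.143). Bglap, osteocalcin, had 2528 and 1079 against 0 and 845 (limma adjusted p = 0.585). In Ascl5Mut/WT the sums were 124810 and 54624 against 22806 and 57465, which overlapped, and 7 of 12 were above (7.32% of all genes, 14.5% of those above 0). The 8 dental follicle markers summed to 11686 and 14775 in Ascl5WT/WT, 62574 and 63058 in Ascl5Mut/Mut and 45779 and 45189 in Ascl5Mut/WT. Of these markers, 2 of 4 tested rose in Ascl5Mut/Mut, where 0.557% of all genes tested were called higher, the matrix protein Postn (16124 and 11457 against 2406 and 2024, limma adjusted p = 0.0356) and the growth factor binding protein Igfbp5 (38667 and 43801 against 7627 and 10872, 0.0218). In Ascl5Mut/WT 1 of 4 tested rose, where 0.338% were called higher, Igfbp5 (35399 and 35736 against 7765 and 11322, limma adjusted p = 0.0068). In Ascl5Mut/Mut Tnc, a matrix protein, had 5876 and 5500 against 545 and 119 (limma adjusted p = 0.0566). Aspn, also tested, had 1767 and 775 against 891 and 1527 (log2 difference 0.0097, limma adjusted p = 0.998), which overlapped. Fmod, Mfap4 and Pth1r overlapped too in Ascl5Mut/Mut, and Pthlh was at 0 throughout that table. Of the 8 markers, 3 had both Ascl5Mut/Mut libraries above Ascl5WT/WT (6.80% of all genes, 13.3% of those above 0). In Ascl5Mut/WT 4 did (7.32% and 14.5%), and none was below in either.

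The 9 dental papilla and odontoblast markers summed to 17011 and 24038 normalized counts in Ascl5WT/WT and 47062 and 30608 in Ascl5Mut/Mut, most of it Col1a1, which the bone list also holds. In Ascl5Mut/Mut Col1a1 was the 1 gene of the 9 above in both libraries (6.80% of all genes) and Runx2 the 1 below (6.89%). The median log2 difference over those above 0 was 0.012. In the Ascl5Mut/WT table the 9 markers summed to 63702 and 37361 against 17347 and 24896, with 2 above (7.32%), none below and a median of 0.42. Dspp, the dentin matrix gene of odontoblasts, rose in Ascl5Mut/WT, at 14045 and 8122 against 336 and 0 (limma adjusted p = 0.0004). It was the 1 call of 2 tested, where 0.338% of all genes tested were called higher. Like Ctsk, Dspp reached the minimum mean only through its mutant libraries. It was at 0 in both Ascl5Mut/Mut libraries. The 7 endothelium markers summed to 486 and 839 in Ascl5WT/WT and 1997 and 1538 in Ascl5Mut/Mut, and to 1296 and 977 in Ascl5Mut/WT against 467 and 850. None was tested, and Emcn and Cldn5 were at 0 in all 6 libraries. In Ascl5Mut/Mut 2 of the 7 were above in both libraries (6.80% of all genes, 13.3% of those above 0) and none below. In Ascl5Mut/WT 2 were above (7.32% and 14.5%) and 1 below (5.99% and 11.8%). The 1 below was Cdh5, with 0 and 138 against 223 and 493. Egfl7 held 761 of the Ascl5Mut/WT replicate 1 sum and was at 0 in replicate 2.

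Marker sums of other tissues also varied between libraries of 1 genotype. The 8 skeletal muscle markers summed to 655 and 16285 normalized counts in Ascl5WT/WT, 110778 and 6073 in Ascl5Mut/Mut, and 34012 and 8676 in Ascl5Mut/WT. The 6 red blood cell markers summed to 787 and 23656 in Ascl5WT/WT, 5224 and 3006 in Ascl5Mut/Mut and 1390 and 3019 in Ascl5Mut/WT. The 10 dental epithelium markers summed to 21825 and 18545, 7607 and 23683, and 16338 and 43959 in Ascl5WT/WT, Ascl5Mut/Mut and Ascl5Mut/WT. Krt14 of basal epithelium was at least 6362 in every library. In Ascl5Mut/Mut 3 of 10 epithelial markers had both libraries below both Ascl5WT/WT libraries (6.89% of all genes, 13.5% of those above 0) and 0 above (6.80% and 13.3%). Among those below were Krt5, a keratin partner of Krt14, with 824 and 987 against 2304 and 1759 (limma adjusted p = 0.594), and the signalling gene Shh with 0 and 0 against 2146 and 1340. In Ascl5Mut/WT 2 were above (7.32% of all genes, 14.5% of those above 0) and 1 below (5.99% and 11.8%). There Shh had 1136 and 1533 against 2162 and 1380, and the enamel matrix gene Enam had 252 and 809 against 113 and 0. The part of bone, follicle, odontoblast, endothelial, epithelial or muscle tissue taken with the tooth in the osteoclast gene values was not tested.

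**Figure D4:**
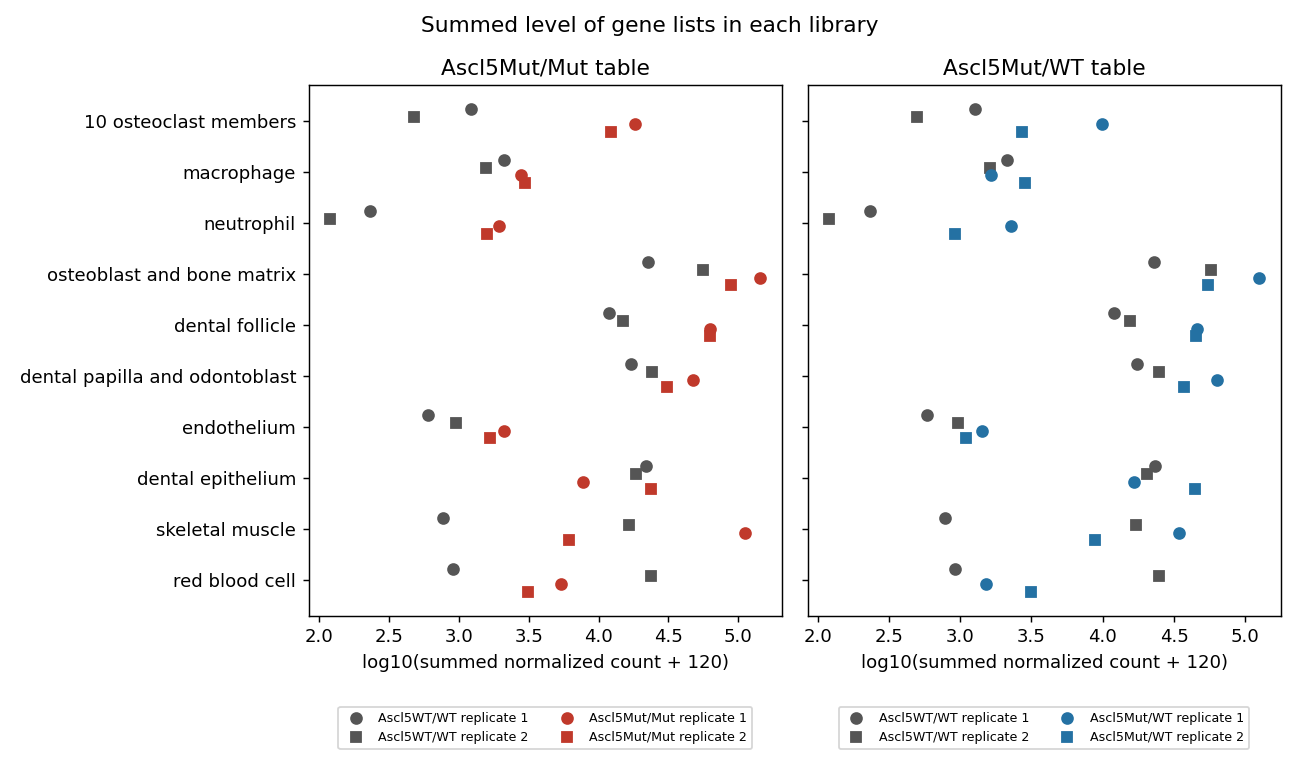
Summed level of the 10 osteoclast genes and of 9 lists of other cell markers, as log10(summed normalized count + 120) on the x axis, in each library of the Ascl5Mut/Mut table (left) and the Ascl5Mut/WT table (right). The osteoclast, neutrophil, dental follicle, papilla and odontoblast, and endothelium sums separated mutant from Ascl5WT/WT libraries in both tables, the macrophage and bone sums in the Ascl5Mut/Mut table only, and the epithelium, muscle and red blood cell sums overlapped. Most of the papilla and odontoblast sum was Col1a1, which the bone list also holds.

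Over the 6 libraries, the 5 genes whose pattern was most like that of Ctsk, by Pearson r of log2(ppm + 10) among 2335 other genes whose mean reached 1000 in the Ascl5Mut/Mut table, were Rtl5 (r = 0.993), Prickle3 (0.991), Vps54 (0.988), Gm10220 (0.986) and Bysl (0.982). Rtl5 had 0 and 0 normalized counts in Ascl5WT/WT, 3628 and 2183 in Ascl5Mut/Mut and 2397 and 687 in Ascl5Mut/WT, so that its second Ascl5Mut/Mut library lay below the first Ascl5Mut/WT one, unlike Ctsk. Mmp9 ranked 9 of 2335 (r = 0.973), Tnc 14 (0.965) and Spp1 58 (0.907). These values describe 6 libraries of 3 genotypes that share their preparation and are given with no p.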

How the data were processed

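RNA was sequenced from 6 molar libraries, 2 per genotype. The authors deposited 2 tables of normalized counts, used here as signal values, and DESeq2 and the mm10 genome are named in the submitters' processing notes; no source used here gives the aligner, counter, annotation or strand setting. Library totals were 12304814 to 13118122 normalized counts. Between 86.0% and 93.8% of low values (up to 5 steps) lay within 0.1 of a whole step, too few to recover whole reads, so no count test was run. Genes with a mean of at least 1000 were tested with limma 3.58.1 (intensity trend) on log2(value + 120), with Benjamini-Hochberg adjustment and a threshold of 0.05, checked on simulated data, in which wrong calls took a larger share of calls than that threshold. Fold changes on this scale understate the change of low genes. Exact 95% intervals of read ratios cover counting error only, and 2 against 2 libraries cannot reach an exact permutation p below 0.33. Positions and exon lengths are from GENCODE (GRCm38). The 10 genes, the lists, the threshold and the tests were chosen with earlier results of these data known. Genes named from the lists were taken from those called or, where none was, the 2 with the highest mean in a table and any with a mean of at least 1000 whose groups did not overlap, unless said otherwise or named as a list's defining markers or for groups that did not overlap; the 5 genes most like Ctsk by Pearson r were also named. A gene that this rule names is not reported here. Alternatives changed the pseudocount, the minimum mean, the scaling, the trend, the replicate block and the libraries left out.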

Additional observations from a re-analysis of the deposited data

How the results depend on the processing

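The call of Ctsk in Ascl5Mut/Mut was the 1 call among the 10 genes, and it depended on the processing. The number of the 10 genes called went from 1 to 0 with a pseudocount of 1, with no minimum mean, with a minimum mean of 10, with a pseudocount of 1 and a minimum mean of 10 together, and without an intensity trend, and it ranged from 0 to 1 when each library was left out in turn. The difference of Ctsk stayed positive, between 4.70 and 6.28 on the log2 scale (4.98 to 5.58 with a library left out), with limma adjusted p from 8.8e-09 to 0.375. Mmp9 was called under no alternative (log2 3.42 to 8.08, limma adjusted p 0.138 to 0.709) and was not tested without Ascl5Mut/Mut replicate 1. In Ascl5Mut/WT 0 of the 10 genes were called by limma under every alternative, with Ctsk at 2.98 to 4.41 (limma adjusted p 0.0715 to 0.86, and unadjusted 0.0273 as reported), and Ctsk was not tested without Ascl5Mut/WT replicate 1. With a library left out, 1 library stands for its group and is assumed to vary like the others. The cause of these changes was not tested.

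Same-numbered libraries share only a number, and their deviations from the group means had a correlation of -0.013 in the Ascl5Mut/Mut table and 0.023 in the other. With the replicate number as a block, Ctsk had a log2 difference of 5.28 (limma adjusted p = 0.00395) in Ascl5Mut/Mut and 3.49 (0.473) in Ascl5Mut/WT, and 1 and 0 of the 10 genes were called. Over all genes the block gave 36 calls in place of 20 and 37 in place of 13. Without a minimum mean 1 gene was called in Ascl5Mut/Mut and without an intensity trend 0 in either comparison. Leaving out each library gave 0 to 74 calls in Ascl5Mut/Mut and 0 to 66 in Ascl5Mut/WT. At 90476 to 117399 estimated reads a library, genes under 3 reads could not be compared.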
